A study of Vitis vinifera with 3 samples.

Results

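The short RNA tags of ripening grape berries were compared with those of berries at stone hardening, with the tags of the listed VvmiRNAs set aside. A tag is a distinct sequence with its number of reads. Members were the tags of 14 to 17 nt with at least 10 reads summed over both libraries that did not match the beginning of any mature VvmiRNA or 5p sequence in the lists of the study. They numbered 634 of 654 tags of this length and depth, and of 28559 distinct tags in both libraries. The other 20 tags were identical to a listed 5′ end. The samples were berries of the grapevine cultivar ‘Wink’ (Vitis vinifera), with no treatment named in the labels, taken at 5 (YB, young), 45 (SB, stone hardening) and 90 (MB, mature) days after flowering (DAF), with 1 small RNA library per stage. No difference between stages therefore has a replicate check, no p-values are given, and the intervals cover counting error only. The libraries of YB and MB were made for another project than that of SB, according to the study, so that stage and library cannot be told apart. Tags of this length hold no tissue markers, and the labelled stages were not checked by them. The files held 39791 (YB), 33228 (SB) and 75960 (MB) reads, all of 3 to 17 nt, which is below the gel band that the methods describe, and the effect of that band on these tags was not tested.

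Stone hardening is the stage at which the seed coat of the grape lignifies, and the berry softens and gathers sugar and colour afterwards as it ripens. Small RNA libraries are made to catch miRNAs and siRNAs, but they also take up pieces of longer RNAs, mostly of rRNAs and tRNAs because these are the bulk of cellular RNA. A mature tRNA carries the letters CCA at its 3′ end, which are added after transcription, and a piece that keeps this end can be told by them. No sequence of the grape genome or of its rRNAs and tRNAs was used here, so the origin of the tags was not determined and they are described by their own letters.

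The tags overlapped in many cases, and they were therefore gathered into families that share a stretch of 13 nt with the most abundant tag of the family, numbered by their summed reads. There were 280 families, of which 153 held a single tag. The leading tags of the 10 families with most reads are shown first because they carry most of the member reads of both stages (5′ to 3′, DNA letters as deposited).
family 1: cgggggacggactggg
family 2: gcggcgacgtgggcgg
family 3: tgcggaaggatcattg
family 4: gggatgggtcgaccggt
family 5: ccctgctgtcgacgCCA
family 6: tcacgtcgggttcaCCA
family 7: agggacagtcgggggca
family 8: ctgagggctgggcacgg
family 9: ttccacGgctttcttga
family 10: cggcaggtcggaCCA
The capitals CCA mark the end letters that tRNAs also carry, and the capital G of family 9 marks the single base by which it departs from VvmiR396a–d, A7G counted from 1 at the 5′ end.

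The 634 tags took up 73.3% of the reads at MB (95% Wilson interval 73.0% to 73.7%), against 39.5% at SB (39.0% to 40.1%) and 35.2% at YB (34.7% to 35.7%). Without the 32 tags of families 1 and 2, the other 602 tags had 16.7% of the reads at MB, 23.1% at SB and 18.4% at YB. These shares still divide by totals that hold families 1 and 2. With the reads of both families also taken out of the totals, the other tags had 38.9% at MB, 27.7% at SB and 22.2% at YB, so that MB was again the highest. Part of these differences may follow from the rule, which asked for 10 reads summed over SB and MB. MB was the largest file, so more tags could pass through it, and YB was not counted in the rule. How much of the order follows from this was not tested. The 10 most abundant tags held 56.1% of the MB reads and 17.9% of the SB reads.

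Reads per tag were compared as log2 (MB/SB) after division by the file total, with counts under 3 set to 3 and a fold of 2 as the threshold. At MB, 145 of the 634 tags (22.9%) were higher and 211 (33.3%) were lower, and 278 lay between. The balance turned with the number of reads required, since 61 were higher and 41 lower among the 169 tags with at least 30 summed reads, and 17 and 8 among the 42 with at least 100. Over all 654 tags, listed ones included, 22.3% were higher and 34.4% were lower, so the shares among the members were close to those of the whole table. Counted once per family, 22.5% of the 280 families were higher and 35.7% were lower. The median over the tags was a log2 (MB/SB) of 0.16. The 20 listed tags, which the rule left out, had 1 higher, 14 lower and a median of −3.30. These numbers are bound to the depth of the files. A tag with 0 reads at SB needed 14 reads at MB to be called higher, and 110 members had too few reads to be called higher at all. With 0 reads at MB, the minimum of 10 summed reads was already past the threshold for lower. All 67 members with 0 reads at MB were therefore called lower. Of the members, 61 had exactly 10 summed reads, and 102 tags with 9 were left out. At the threshold itself, a tag with 5 reads at SB and 23 at MB (1.01) counted as higher and one with 4 and 18 (0.98) did not. On the other side, tags with 7 and 8 reads (−1.0) and with 6 and 7 reads (−0.97) were parted.

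**Figure D1:**
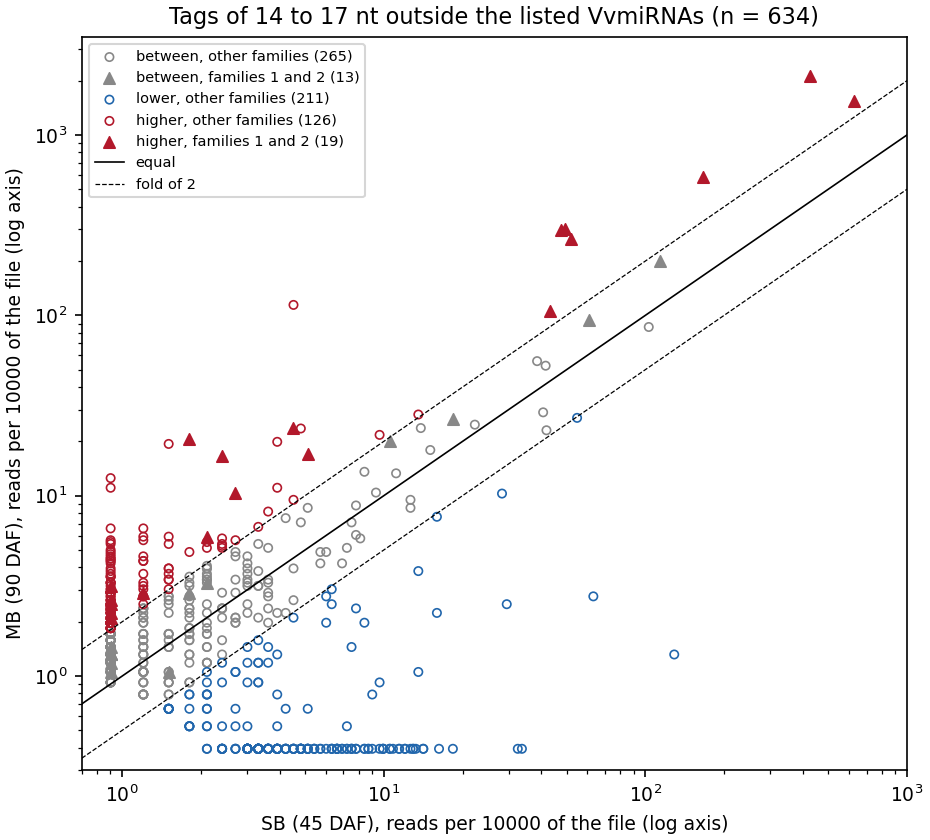
Reads per 10000 of the file at SB (x axis) and MB (y axis) for the 634 tags, both axes logarithmic; each point is a tag, triangles are tags of families 1 and 2, colours give the call, and tags with under 3 reads are drawn at 3 reads. The 126 higher tags outside families 1 and 2 lie mostly at low SB values, and a row of tags lies at the lower edge because they had under 3 or exactly 3 reads at MB.

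The scale of the comparison sets how many tags stand on each side. Since 57.2% of the MB reads and 16.6% of the SB reads shared 13 nt with the leading tags of families 1 and 2, dividing by the totals without these reads raised every log2 (MB/SB) by 0.96, and 327 tags were then higher and 166 lower. Higher tags made up 40.7% of the calls with the file totals and 66.3% on this scale. Per clean read of the libraries, which is a total of longer reads, every value rose by 1.29 and 369 tags were higher and 161 lower (69.6% of the calls were higher). TMM factors and DESeq2 size factors moved every value by −0.15 and −0.22. Both were estimated from the counts of the members themselves, so they place the middle of the members near 0 by design. Directions between −1.29 and 0.22 thus depend on the scale, while the order of the tags does not.

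Family 1 was the most abundant at every stage. It had 5299 reads at YB, 4508 reads at SB and 34884 at MB, which is 1332, 1357 and 4592 per 10000 reads. YB and SB were alike in this share, and MB stood above both. Its log2 (MB/SB) was 1.76 (95% counting interval 1.71 to 1.80), and 11 of its 20 tags were higher and 0 lower. Family 2 had 1363, 953 and 8162 reads at YB, SB and MB, with a log2 (MB/SB) of 1.91 (1.81 to 2.0) and 8 of 12 tags higher. The forms within family 1 did not change by the same amount. The leading tag of 16 nt had 1389, 1412 and 16060 reads and a log2 of 2.31 (2.24 to 2.39). The tag that lacks its first base had 2741, 2086 and 11666 reads and a log2 of 1.29 (1.22 to 1.36), and the 17 nt form with an A after the leading tag had 451, 378 and 1514 reads and 0.81 (0.65 to 0.98). The shorter form without the first base was the more abundant of the pair at YB and SB, and the 16 nt form was at MB. Of the members, 21 differed by 1 substitution from a tag with at least 20 times their reads, nearly all around the leading tags of family 1, and whether they are separate RNAs was not tested.

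A look at all tags that overlap the leading tag of family 1 was added after the values were seen. Joined by overlaps of at least 11 nt, they gave a stretch of 30 nt, in which capitals mark the leading tag.
chain: gccggcCGGGGGACGGACTGGGaacggctc
Tags that begin at the leading tag itself had 1957 reads at YB, 1968 reads at SB and 19743 at MB, a log2 (MB/SB) of 2.13. Tags beginning 1 base further on had 3304, 2508 and 14832 reads and 1.37. Those beginning 6 bases before it, which are family 14, went the other way, with 752, 178 and 102 reads and a log2 (MB/SB) of −2.0. All 4 tags of family 14 were lower at MB. The start at 6 bases before thus held 12.3% of the reads of this stretch at YB, 3.77% at SB and 0.292% at MB. The order of this start from YB over SB to MB was thus the reverse of that at the leading tag.

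**Figure D2:**
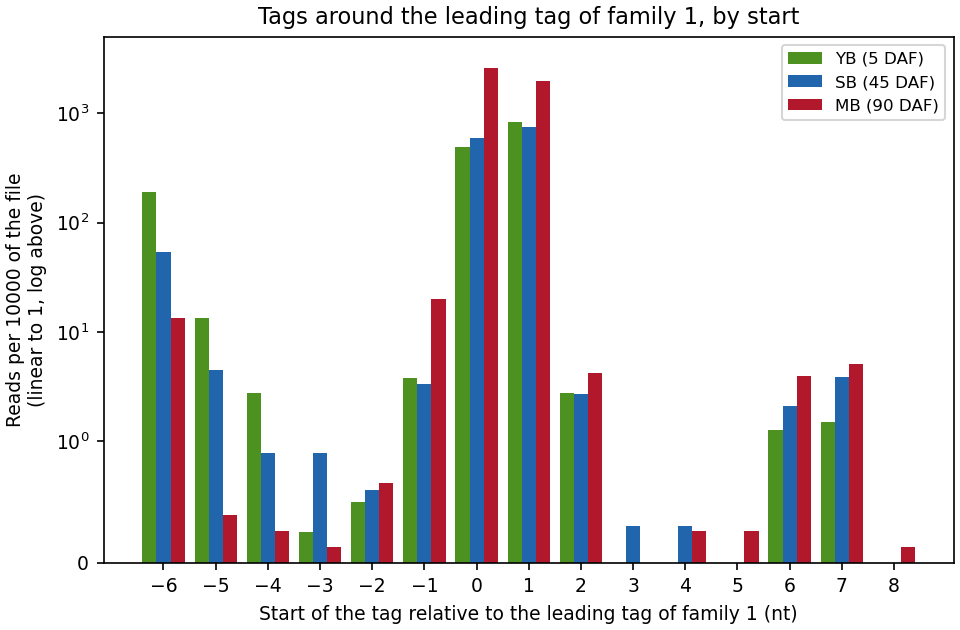
Reads per 10000 of the file by the start of the tag relative to the leading tag of family 1, at YB, SB and MB (y axis linear up to 1 and logarithmic above, bars from 0, 1 library a stage and no error bars). Bars at 0 and 1 nt are highest at MB, and bars at −6 and −5 nt are highest at YB and lowest at MB.

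Apart from families 1 and 2, the reads of the higher tags were few. The 126 higher tags outside them had 1.05% of the YB reads, 1.38% of the SB reads and 6.57% of the MB reads. The 6 families with the largest rise among those with at least 50 summed reads are shown because they were rare at SB, with 33 reads or fewer each.
family 31: cggtggactgctcgagc
family 4: gggatgggtcgaccggt
family 27: cagaactggtacggaca
family 72: agggagccggacgacg
family 21: gtcccgaacccgtcggc
family 49: aaagatggtgaactatg
Family 4 rested on most reads, with 80 at YB, 33 at SB and 1057 at MB and a log2 (MB/SB) of 3.81 (3.31 to 4.35). Its leading tag went from 15 reads at SB to 867 at MB, a log2 of 4.66 (3.93 to 5.50), while the same tag without its last T went from 13 to 151 (2.35, 1.53 to 3.29). It had the largest log2 of all members with counts under 3 set to 3. By counts, the leading tag of family 31, with 1 read at SB and 95 at MB, had 5.38 (2.86 to 10.7). Family 31 had 8, 4 and 133 reads at YB, SB and MB (3.86, 2.47 to 5.76), and family 27 had 1, 6 and 145 (3.40, 2.25 to 4.87). All 6 tags of family 27 and all 3 of family 31 were higher. Family 21 had 9, 10 and 178 reads (2.96, 2.05 to 4.05), and family 49 had 2, 6 and 89 (2.70, 1.52 to 4.18). Family 72 had 7 reads at YB, 1 read at SB and 59 at MB, a counted log2 (MB/SB) of 4.69 with an interval of 2.16 to 10.02. All 6 remained above a fold of 2 on every scale tried. This was certain, because the largest downward shift was −0.22 and their lowest value was 2.70.

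Family 11 led the tags that begin with A, with 24 reads at YB, 34 reads at SB and 346 at MB and a log2 (MB/SB) of 2.15 (1.64 to 2.71). Family 11 also had reverse complements among the members. Its leading tag and the tag of family 50 that runs against it are given with the shared letters in capitals.
family 11: AGGGACGATCGATGGTG
family 50: CACCATCGATCGTCCCT
The first had 3, 16 and 179 reads at YB, SB and MB, and its reverse complement had 0, 4 and 6. The second tag of family 50 had 7, 17 and 65 reads and a log2 (MB/SB) of 0.74. Tags of both orientations were thus present at SB and at MB. Whether they come from opposite strands of the same place in the genome was not tested. In all, 14 pairs of members were reverse complements over at least 13 nt, 12 of them between families 11 and 50. The other 2 joined families 66 and 205, where a tag of 41, 43 and 1 reads faced one of 2, 12 and 2 reads.

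**Figure D3:**
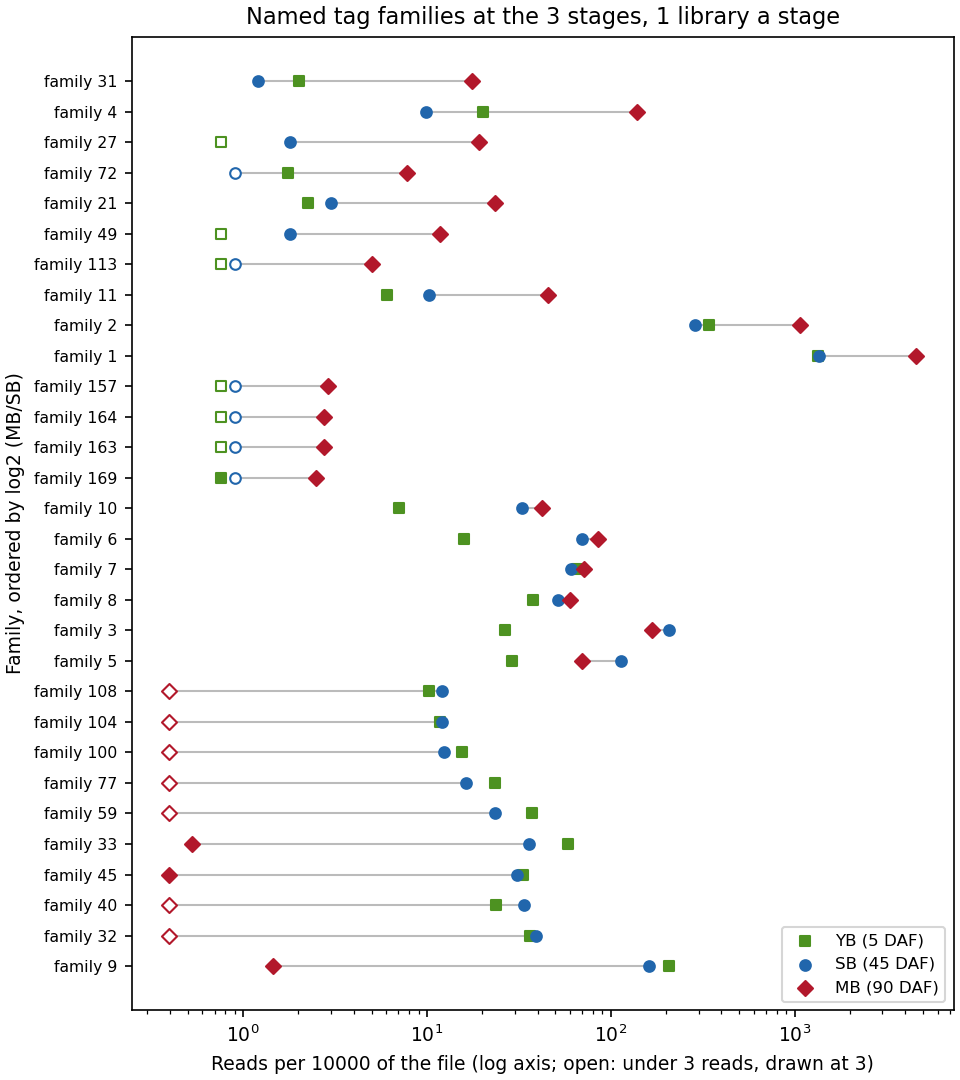
Reads per 10000 of the file (log axis) of the 30 named families at YB, SB and MB, ordered by log2 (MB/SB), with 1 library a stage; open symbols stand for under 3 reads and are drawn at 3 reads. In the lower 10 rows YB and SB lie near each other and MB lies far to the left, and families 1, 2 and 4 have the highest MB values among the rows of higher families.

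The tags that were lower at MB held a similar share of both earlier libraries. Summed over the 211 tags, they had 13.9% of the YB reads, 14.01% of the SB reads and 1.35% of the MB reads. The YB library was not used to choose them, while the SB and MB shares follow from the rule. Of these tags, 67 had 0 reads at MB, and 5 had 0 reads at YB. The 145 higher tags had 15.6% at YB, 15.7% at SB and 59.7% at MB. The totals of YB and SB were thus close in both sums. Most reads of the higher sum were those of families 1 and 2. Outside them, the higher tags had 419 of the 6206 reads at YB and 457 of the 5215 at SB. Close totals do not mean that each family was alike at YB and SB. Among the lower families, family 14 had 189 reads per 10000 at YB and 53.6 at SB, while family 40 had 23.6 and 33.7.

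Family 9 had the largest fall with counts under 3 set to 3 and is shown above because its letters are those of VvmiR396a–d but for A7G. It had 820 reads at YB, 536 reads at SB and 11 at MB, a log2 (MB/SB) of −6.80 (−7.81 to −5.95). Both of its tags were lower. The only other members that departed by 1 base from a listed 5′ end were the 2 tags of family 150, which carry T9C against VvmiR30 and VvmiR34.
family 150: gttggaagCcggtggg
family 150: gttggaagCcggtg
The longer had 7, 12 and 2 reads at YB, SB and MB and the shorter had 9, 6 and 4. All 4 tags that were 1 base from a listed end were lower at MB, beside 34.4% over all 654 tags. On the totals without families 1 and 2 or the clean reads, 3 of the 4 remained so. The counting interval of the shorter tag of family 150 includes no difference. The listed ends fell as well. The 17 nt end of VvmiR396a–d had 84 reads at SB and 12 at MB (−4.0), and the 16 nt end of VvmiR30 and VvmiR34 had 347 and 55 (−3.85). No member lay inside a listed sequence away from its 5′ end.

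The next families by this measure are shown with their leading tags, none of which was within 1 base of a listed 5′ end. Families 59 and 60 tied in it.
family 32: ataaataacaataccg
family 40: caccttggtggttatgg
family 45: accgcgttggagcag
family 33: aaaaaaaaaaaaaaaa
family 59: gattaacagggacagt
family 60: agaaatatgtcccaact
Family 32 had 145 reads at YB, 130 reads at SB and 2 at MB, a counted log2 (MB/SB) of −7.22 (−10.28 to −5.33), and all of its 5 tags were lower. Family 40 had 94, 112 and 0 reads and was at least 85.3-fold lower at MB against 3 reads. Family 45 had 132, 102 and 3 reads (−6.28, −8.58 to −4.69). All 3 families were well read at YB and SB and nearly or fully missing at MB. Family 33 is a run of A, with 233, 120 and 4 reads (−6.10, −8.0 to −4.71), and all of its 4 tags were lower. Family 59 had 148, 78 and 2 reads (counted log2 −6.48, −9.55 to −4.58), and family 60 had 98, 78 and 1 (−7.48, −12.8 to −4.96). By counted values, family 60 (−7.48), family 66 with 73, 68 and 1 reads (−7.28) and family 32 came before family 9, with intervals that overlap its own. Family 16, whose letters are given below and which was named after its values were seen because it has the most reads of the lower families besides families 9 and 14, had 368 reads at YB, 240 reads at SB and 27 at MB and a log2 (MB/SB) of −4.34.

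Of the 280 families, 23 had 0 reads at MB and 18 had 0 reads at SB. Over all lengths and read numbers, SB held 14883 distinct tags, MB 15838 and both together 28559. Most distinct tags were thus found in only 1 of the 2 files. The families with most reads in the other library are given for both sides. First come 4 that were not found at MB besides family 40, then 5 that were not found at SB.
family 77: ccataggtaaattcgg
family 100: gaagtctccaaaaact
family 104: cggttcaataaagct
family 108: ttaagattggggcaatt
family 113: ggtgaagtgttcggatc
family 157: aagaaaaggtcctcggg
family 163: gaatttcagatcgacgg
family 164: ggggtgcaccgtcg
family 169: cctgggaagtcctcgtg
Family 77 had 93 reads at YB and 54 at SB and was at least 41.1-fold lower at MB. Family 100 had 62 and 41 reads (at least 31.2-fold lower), family 104 had 47 and 40, and family 108 had 41 and 40 (at least 30.5-fold lower each). All 4 were thus well read in both earlier libraries. Of those with 0 reads at SB, family 113 had 1 read at YB and 38 at MB, at least 5.54-fold higher at MB, and family 157 had 0 and 22 (at least 3.21-fold). Families 163 and 164 had 0 reads at YB and 21 at MB (at least 3.06-fold each), and family 169 had 3 and 19 (at least 2.77-fold). The families on this side had fewer reads per 10000 where they were found, 5.0 for family 113 against 16.3 for family 77, and the 3 reads of the bound are 0.903 per 10000 at SB against 0.395 at MB.

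Tags that end in CCA were 40 in 21 families, led by families 5, 6 and 10, whose letters are shown above. With the file totals, 0 of them were higher and 15 (37.5%) were lower, beside 22.3% higher and 34.4% lower over all 654 tags, so that the share of lower tags was near the background. Their log2 (MB/SB) ranged from −2.93 to 0.78 with a median of −0.61. Their summed share was 0.616% at YB, 2.87% at SB and 2.38% at MB, so that SB and MB were near each other and YB was lower. Family 5 had 115, 379 and 528 reads and a log2 (MB/SB) of −0.71 (−0.91 to −0.52), family 6 had 63, 232 and 648 (0.29, 0.07 to 0.51), and family 10 had 28, 109 and 319 (0.36, 0.04 to 0.68). The sign of family 5 was positive on the totals without families 1 and 2 (0.25) and per clean read (0.58). On these scales 7 and 11 of the 40 tags were higher and 4 were lower on each. Of all 634 tags, 327 and 369 were higher there and 166 and 161 lower, so the tags ending in CCA had the smaller share of both calls. Over all members the range was −6.61 to 4.66.

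Families 3, 7 and 8 were within a fold of 2 between SB and MB with the file totals. Family 3 had 106 reads at YB, 692 reads at SB and 1277 at MB, with a log2 (MB/SB) of −0.31 (−0.44 to −0.17) that became 0.65 and 0.98 on those same scales. It was the family in which YB stood furthest below SB among the 10 with most reads, at 26.6 against 208.3 reads per 10000. Family 7 had 261, 203 and 544 reads (0.23, −0.01 to 0.47) and family 8 had 151, 172 and 458 (0.22, −0.04 to 0.48), which is within the counting error of no difference on this scale. On the totals without families 1 and 2 they had 1.19 and 1.18, and per clean read 1.52 and 1.51, which is past a fold of 2. With DESeq2 size factors they had 0.00709 and −0.0021. Both had 21 tags, and with the file totals the sums hid tags of both directions, with 5 higher and 3 lower in family 7 and 1 of each in family 8. The lower tag of family 8 was at the threshold, with 8 reads at SB and 9 at MB (−1.02). Of the 3 lower tags in family 7, 2 were near it (−1.06 and −1.12). The upward shifts of 0.96 and 1.29 take these tags out of the lower call.

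Families 11 to 20 ranged in log2 (MB/SB) from −4.34 to 2.15, against −6.80 to 3.81 for families 1 to 10. From families 11 to 20, 4 are shown that were picked after their values were seen, because they stand for a rise, a fall and small positive differences.
family 17: atgtcgctccgattcgt
family 16: cgcgacacttttccaac
family 13: acaaacgactctcggca
family 20: gcggggatagctcagt
Family 17 is a single tag with 5 reads at YB, 45 reads at SB and 214 at MB. Per 10000 reads these were 1.26, 13.5 and 28.2, so that it stood lowest at YB and highest at MB. Its log2 (MB/SB) of 1.06 (0.59 to 1.55) is at the threshold. Family 16 was described above, and its 2 tags of 17 and 16 nt had 210 and 30 reads at SB and 21 and 6 at MB. Family 13 had 48, 70 and 214 reads (0.42, 0.02 to 0.83), with 2 of its 5 tags higher and 0 lower. Family 20 had 79, 54 and 140 reads (0.18, −0.28 to 0.66), and 0 of its 4 tags passed a fold of 2 in either direction.

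Mixed families, with tags called both ways, numbered 13 with the file totals, and which families count as mixed depends on the scale. The median range of log2 (MB/SB) within the 127 families of at least 2 tags was 1.35, with 5.58 as the largest. In several of the mixed families the tags differ only at their ends. Families 15 and 68, picked after the values were seen, differ from each other by 1 base and are shown as ladders of 14 to 16 nt with the added base in capitals.
family 15: ggtgtcgtggtgta
family 15: ggtgtcgtggtgtaG
family 15: ggtgtcgtggtgtagT
family 68: ggtgtcgtcgtgta
family 68: ggtgtcgtcgtgtaG
family 68: ggtgtcgtcgtgtagT
In family 15, the 14 nt tag had 67 reads at YB, 45 reads at SB and 29 at MB (log2 −1.83), the 15 nt tag had 33, 31 and 79 (0.16), and the 16 nt tag had 3, 2 and 84 (counts under 3 set to 3, 3.61). In family 68, the same steps had 14, 8 and 4 reads (−2.19), 7, 4 and 16 (0.81), and 0, 1 and 34 (2.31 with the floor). In both, the longest form was the rarest at YB and SB and the most abundant at MB. Whether the ladders come from separate RNAs was not tested.

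The pairs of members that differ by 1 base at an end were then counted as a whole. Among 136 pairs that differ at the 3′ end, the longer tag had a log2 (MB/SB) above that of the shorter by a median of 0.23 (quartiles −0.68 and 0.95). The longer was above by at least 2 in 14 pairs and below by at least 2 in 2 pairs. Among 124 pairs that differ at the 5′ end, the median was 0.22 (quartiles −0.43 and 0.77), with 6 and 1 pairs past 2. Most pairs, 87 and 90, were within 1. The pairs with the largest differences at the 3′ end, 3.91 and 3.81 (counts under 3 set to 3), are given with the added base in capitals.
family 19: aaaggtcgacgcgggC
family 19: aaaggtcgacgcggg
family 3: tgcggaaggatcattG
family 3: tgcggaaggatcatt
With its last C, the tag of family 19 had 13 reads at SB and 84 at MB, and without it 7 and 3. With its last G, the tag of family 3 had 342 and 654, and without it 22 and 1. Tags share bases and families here, so the pairs are a description only. The differences within pairs do not depend on the scale, because both tags are divided by the same totals. Where a count is under 3, they depend on the floor.

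With the file totals, tags that overlap by at least 11 nt without one holding the other gave 47 pairs with opposite calls. These were made of 20 lower and 27 higher tags. In 31 of the pairs the tag lying further 5′ was the lower one, but 12 of these joined families 59 and 7 and 8 joined families 14 and 1, so that the pairs are not separate cases. Families 59 and 7 gave the pair below, with the shared letters in capitals.
family 59: gattAACAGGGACAGT
family 7: AACAGGGACAGTcgggg
The first had 74 reads at YB, 33 reads at SB and 0 at MB, and the second had 6, 8 and 44. The tag that ends at the shared letters was not found at MB, while the tag that begins with them was more frequent there. Whether both come from the same RNA was not tested.

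Length and first base parted the tags less. Of 369 tags of 17 nt, 27.4% were higher and 27.6% lower, with a median of 0.39. Of 150 tags of 16 nt, 18% were higher and 42.7% lower, of 74 tags of 15 nt 14.9% and 40.5%, and of 41 tags of 14 nt 14.6% and 36.6%. The longest class thus had the larger share of higher tags, beside a background of 22.3% over all 654. Tags that begin with T were lower in 43.9% of 123, those with A in 35.3% of 139, those with G in 30% of 220 and those with C in 27.6% of 152, against 34.4% over all. First base and GC content are tied to each other, and they were not separated.

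GC content parted the tags more clearly, a class added after the values were seen. Of 59 tags under 40% GC, 44 (74.6%) were lower and 4 higher, with a median log2 (MB/SB) of −3.31. Between 40% and 50% GC, 43 of 91 were lower and 21 higher (median −0.54). From 50% to 60% GC, 52 of 177 were lower and 49 higher (median 0.27), and from 60% to 70%, 42 of 129 were lower and 25 higher (0.03). At 70% GC and over, 30 of 178 (16.9%) were lower and 46 higher (0.54). The order of the medians was thus not even, and the step lay between the tags under 40% and the rest. Outside families 1 and 2, the class of 70% and over had 146 tags, of which 30 were lower and 27 higher (median 0.27), and no tag under 40% belonged to those families. On every scale tried, 43 or 44 of the 59 tags under 40% GC were lower, while the number of higher tags among them ranged from 2 to 11. The 59 tags fell into 40 families, among them families 32 and 33 above, and their reads were 3.57% of the file at YB, 3.40% at SB and 0.457% at MB.

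**Figure D4:**
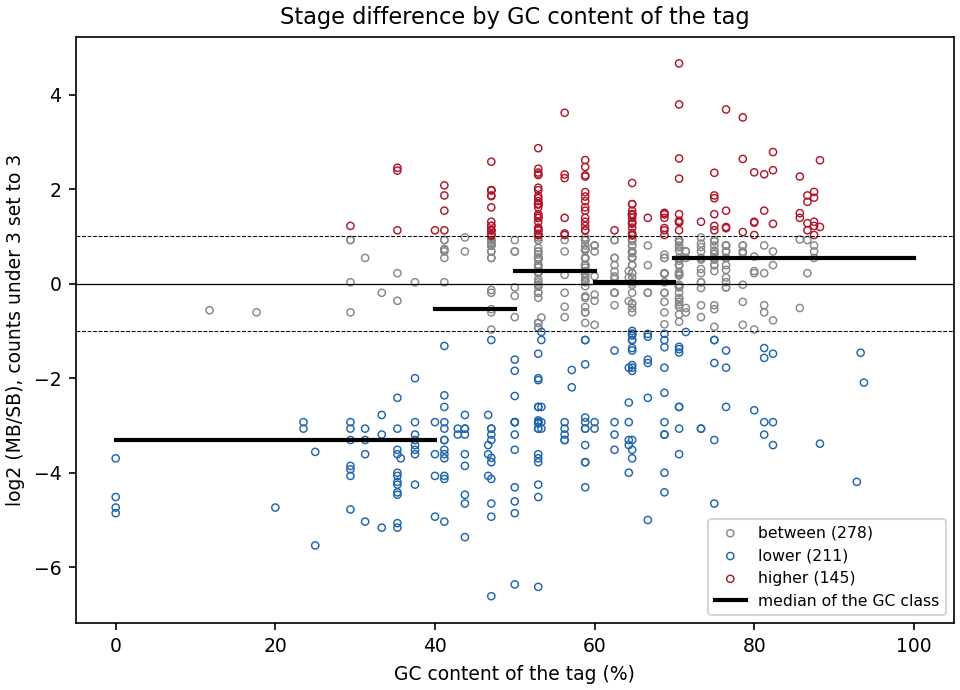
Log2 (MB/SB) of the 634 tags by GC content of the tag in percent; points are tags coloured by their call, thick lines are the medians of the 5 GC classes and dashed lines mark a fold of 2. The median under 40% GC is −3.31 and those of the other classes lie between −0.54 and 0.54.

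The reads themselves moved with this. Over all reads of 14 to 17 nt, the mean GC content was 55.0% at YB, 55.8% at SB and 71.0% at MB, and without the reads of families 1 and 2 it was 49.3%, 50.5% and 56.3%. A GC preference of 1 library preparation against another and a difference of the RNA in the berries cannot be told apart with 1 library per stage.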

How the data were processed

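The authors deposited, for each library, the read counts of distinct sequences with their length, after adapter trimming and collapsing of identical reads and without normalization. The software of this step is not given in the sources used here. The labels name an Illumina protocol and the methods another platform and unique molecular identifiers, so counts were taken as reads and not as molecules. Columns left unused numbered 0.

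From these counts, tags of 14 to 17 nt with at least 10 reads over SB and MB were kept, and those equal to a 5′ end among 161 known entries and 47 listed 5p sequences (134 distinct) were set aside. Ratios were divided by file totals, with a floor of 3 reads. A count of 3 reads is 0.00754% of the file at YB, 0.00903% at SB and 0.00395% at MB. Intervals are exact (Clopper-Pearson) for ratios and Wilson for shares, at 95%. Families share 13 nt with their leading tag, taken in order of reads. Families were named by rule: the 10 with most reads, the 6 with the largest rise and fall among those with at least 50 reads, the 5 with most reads and 0 in the other library, and the one with most reads in each class. The members and lists were chosen with earlier results of these data known. The looks at GC content, tag ends, overlaps, reverse complements and the chain were added after the values were seen.

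The count tests that replicates would allow were not run, because each stage is 1 library. R 4.3.3 with edgeR 4.0.16 gave TMM factors, DESeq2 1.42.0 gave size factors, and other steps used Python 3.11.15, scipy 1.17.1, numpy 2.4.6 and matplotlib 3.10.9. The steps were tested on simulated data. Alternatives were other scales, thresholds, read minimums, lengths and exclusions, and MB thinned to the SB total.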

Additional observations from a re-analysis of the deposited data

Results flagged for a closer look

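Reads of 3 to 13 nt were part of the file totals but were not compared as tags. They were 6.004% of the YB file (95% Wilson interval 5.77% to 6.24%). The share was 5.14% in the SB file (4.91% to 5.38%) and 2.37% in the MB file (2.26% to 2.48%). They are listed because each share is above what 3 reads can show, and what they are was not examined.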

How the results depend on the processing

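The numbers of higher and lower tags (145 and 211) and the median log2 (MB/SB) of 0.16 were computed again with 1 choice changed at a time. On the totals without families 1 and 2, 327 tags were higher and the median was 1.13, and per clean read these were 369 and 1.46. The total of clean reads at MB was inferred from fold values that the study lists. With TMM factors, every log2 (MB/SB) fell by 0.15, with 114 higher and 219 lower tags and a median of 0.0125. With DESeq2 size factors it fell by 0.22, with 101 and 224 and a median of −0.0574. Both kinds of factors came from the member counts, so these medians near 0 follow from the method. With no minimum of reads, 145 tags were higher, 574 were lower and the median was −0.78. With at least 30 reads there were 61 higher and 41 lower tags (median 0.56), and with at least 100 there were 17 and 8 (0.66), so that the sign of the difference between both numbers turned with the minimum. With 17 nt only, 102 were lower (median 0.39). The median was −0.42 with MB thinned to the SB total and 0.0296 without families 1 and 2, a setting added after the data were seen. Counted once per family, 63 were higher and 100 lower (median 0.00864). At a fold of 4, 32 were higher. Where the counting interval also had to leave out a ratio of 1, 108 were higher and 183 lower, and with a pseudocount of 0.5 in place of the floor 202 and 211 were. Leaving out the 4 tags that were 1 base from a listed 5′ end gave 145 and 207, which is all that so few tags could change. No member lay inside a listed sequence, so leaving such tags out changed nothing.

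The share of reads in the members at SB and MB was 3.92% and 3.58% with each distinct tag counted once, 27.7% and 38.9% without families 1 and 2, and 41.7% and 75.1% of the 14 to 17 nt reads. Among the 30 named families, 3 changed sign on another scale (families 3, 5 and 8), and 0 of those past a fold of 2 did. The shifts, from −0.22 to 1.29, were too small to turn any of the latter. The median of tags under 40% GC differed from that of tags of 70% GC and over by −3.85, which a change of scale cannot move. It was −5.24 with the pseudocount, −1.47 with no minimum of reads, −5.47 with at least 30 reads and −2.90 with MB thinned. No paired analysis was possible because each stage has 1 library, and for the same reason no replicate could be left out. A tag with 0 reads at SB has no upper bound on its ratio, and one with 0 reads at MB has no lower bound.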
